A study of Mus musculus with 6 samples.

Results

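The 6 structured non-coding RNAs described here were measured in 4T1 cells, a mouse mammary carcinoma line. They are Rn7sk (7SK RNA), Rn7s1 and Rn7s2 (2 genes of 7SL RNA), Rmrp (the RNA of RNase MRP), Rpph1 (the RNA of RNase P) and Terc (telomerase RNA). They were chosen by gene symbol from the 48587 gene rows of the deposited count table. All 6 were present and all 6 passed the abundance filter that left 13166 genes for testing. Total RNA depleted of ribosomal RNA was read in 6 stranded libraries, 3 from METTL7A1 cells and 3 from mock cells. METTL7A1 cells were stably transfected with a FLAG-tagged Mettl7a1 cDNA under the CMV promoter and kept in G418. Mock cells were stably transfected with the empty vector, and the methods do not state separately whether they were kept in G418. The methods call the libraries biological triplicates and do not say whether each cell population was 1 clone or a pool. The p values weigh the difference between groups against the spread of libraries within groups. Differences between the cell populations that came with cloning or transfection cannot be told apart here from those of METTL7A1.

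Each of these RNAs folds and works inside a ribonucleoprotein. 7SK RNA, with Larp7 and the capping enzyme Mepce, holds the elongation kinase P-TEFb (Cdk9 with cyclin T) inactive through Hexim proteins. 7SL RNA is the scaffold of the signal recognition particle, which docks ribosomes making secretory and membrane proteins at the endoplasmic reticulum. RNase P cuts the 5′ leader from transfer RNA precursors and RNase MRP cuts precursor ribosomal RNA, and most of their protein subunits are shared. Terc carries the template from which telomerase copies telomere repeats. RNA polymerase III makes 7SK, 7SL, Rmrp and Rpph1, whereas RNA polymerase II makes Terc.

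The RNAs differed in how far a read could be placed at 1 gene, and the sequences of some are shown for that reason. The 300 bases of Rn7s1 (chr12:69159295-69159594, GRCm38, + strand) and Rn7s2 (chr12:69361182-69361481, − strand) were identical in the GENCODE M21 transcripts, with 0 differing bases. The count table also listed 2 further genes inside each of them on the same strand (AC099934.1 and AC099934.2 in Rn7s1, AC157822.1 and AC157822.2 in Rn7s2). These covered 147 of the 300 bases, at positions 143 to 212 and 224 to 300 of the RNA, and had 0 counts in every library. The methods do not state how reads that matched several places or several genes were treated.

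Rn7sk (chr9:78175303-78175633, − strand, 331 bases) had 301 different words of 31 bases, and 25 other genes of the table held at least 1 of them. The closest were Gm24447 with 211 of the 301 words, Gm26315 with 205, Gm26035 with 145 and Gm24146 with 95. Its first 100 bases are printed with GATC, the short motif of the Hexim-binding hairpin, in capitals. GATC occurred 3 times there, from positions 13, 42 and 64.

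Rn7sk, bases 1 to 100: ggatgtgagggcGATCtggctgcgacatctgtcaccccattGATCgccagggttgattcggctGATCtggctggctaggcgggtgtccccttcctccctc

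Rmrp (chr4:43492788-43493058, − strand, 271 bases) shared no 31-base word with a transcript of another gene on its own strand. It is shown whole, with no part in capitals, as the abundant RNA of the set for which no copy was found among annotated transcripts. Sequence outside annotated transcripts was not searched.

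Rmrp: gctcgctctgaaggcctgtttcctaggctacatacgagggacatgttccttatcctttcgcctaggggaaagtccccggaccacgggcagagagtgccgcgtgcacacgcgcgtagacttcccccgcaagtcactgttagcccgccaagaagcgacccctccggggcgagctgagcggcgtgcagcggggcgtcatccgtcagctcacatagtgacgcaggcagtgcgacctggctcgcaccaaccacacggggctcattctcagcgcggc

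Terc (chr3:96414437-96414859, − strand, 423 bases) likewise shared none. Its first 100 bases are shown with the 9 bases complementary to the telomere repeat, positions 28 to 36, in capitals. Positions are counted from the start of this GENCODE transcript. RefSeq lists Terc with 397 bases, so the numbering may differ there.

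Terc, bases 1 to 100: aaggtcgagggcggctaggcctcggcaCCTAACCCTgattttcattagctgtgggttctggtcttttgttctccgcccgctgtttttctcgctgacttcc

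Rpph1 (chr14:50807449-50807767, − strand, 319 bases) had 289 such words, of which 13 were in Rprl3 and 4 in Rprl2, related RNase P RNA genes elsewhere in the genome. A further 203 were in a GENCODE transcript of Ccnb1ip1 that runs over Rpph1, but the Ccnb1ip1 exons of the count table did not overlap it. Rpph1 starts 179 bases from Parp2, a DNA repair enzyme gene on the opposite strand. The start region they share is printed in the direction of Rpph1 from the RefSeq promoter window of Parp2 (chr14:50807666-50807965, GRCm38.p6). The last 102 of its 300 bases are the start of Rpph1. Capitals mark the octamer ATGCAAAT, 100 to 93 bases before Rpph1, and TATAA on the opposite strand, 33 to 29 bases before it.

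Rpph1 and Parp2 start region: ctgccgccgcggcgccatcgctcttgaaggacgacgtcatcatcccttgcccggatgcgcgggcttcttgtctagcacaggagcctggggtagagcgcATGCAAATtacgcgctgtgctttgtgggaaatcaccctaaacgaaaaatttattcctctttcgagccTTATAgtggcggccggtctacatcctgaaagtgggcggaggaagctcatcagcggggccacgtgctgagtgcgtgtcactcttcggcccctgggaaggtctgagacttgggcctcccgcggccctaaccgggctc

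Both motifs were searched on both strands. ATGCAAAT was in 570 of 32851 promoter windows of 300 bases (1.74%), and TATAA was in 24.9%. In the window of Ccdc107, the gene facing away from Rmrp, the octamer lay 223 to 216 bases and TATAA 168 to 164 bases before Rmrp, both on the opposite strand and again in capitals. That window (chr4:43493115-43493414) began 57 bases before Rmrp, so the bases next to it were not searched. In the window of C920006O11Rik, which began 31 bases before Rn7sk and so left out the bases next to it, the octamer was not found and TATAA was found 3 times, 140 to 136 and 97 to 93 bases before Rn7sk on its own strand and 98 to 94 bases before it on the opposite strand, where it overlapped the last.

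Rmrp and Ccdc107 start region, in the direction of Rmrp: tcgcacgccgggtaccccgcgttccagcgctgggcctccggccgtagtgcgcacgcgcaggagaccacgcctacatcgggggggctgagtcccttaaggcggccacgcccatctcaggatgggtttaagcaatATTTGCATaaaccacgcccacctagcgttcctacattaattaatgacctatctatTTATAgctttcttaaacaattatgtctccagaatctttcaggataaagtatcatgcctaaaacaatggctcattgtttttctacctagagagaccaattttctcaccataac

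Libraries held 18386780 to 28459338 counts, and the 6 RNAs took 0.751% to 0.906% of them. Mettl7a1 had 6355, 11358 and 10398 counts in METTL7A1 replicates 1, 2 and 3 and 29 to 30 in the mock libraries, in the direction of the labels. Of 6 epithelial markers all 6 were detected, with summed levels of 1495 to 1827 cpm (counts per library total on a common scale) in METTL7A1 and 1505 to 1714 in mock. Krt14 fell, with a log2 fold change of -1.94, and Cldn7 rose, with 0.33. The 5 leukocyte markers summed to 11.8 to 14.5 and 4.56 to 7.12 cpm, nearly all from Cd68, while Cd3e was at 0 and Ptprc at 3 to 8 counts. The 5 endothelial and fibroblast markers summed to 24.6 to 28.4 and 17.0 to 19.4, nearly all from Pdgfra. Entries holding ribosomal repeat sequence took 4.23%, 6.62% and 8.22% of the METTL7A1 libraries and 21.0%, 11.5% and 7.34% of the mock libraries, so mock replicate 1 stood apart. The mitochondrial ribosomal RNAs took 15.6%, 10.6% and 11.2% of the METTL7A1 libraries and 6.93%, 9.48% and 9.61% of the mock libraries, without overlap and with METTL7A1 replicate 1 apart from the rest. Other small nuclear and nucleolar RNA genes took 0.442%, 0.399% and 0.329% of the METTL7A1 libraries and 0.527%, 0.518% and 0.523% of the mock libraries, without overlap. The part of these shares in the results was not tested beyond the scalings given.

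Levels differed widely and Rn7sk led. On TMM-scaled cpm (libraries scaled so that most genes match, the scale of all cpm values below) and per kilobase of gene length, the METTL7A1 and mock means were 15474 and 12821 for Rn7sk, 6582 and 9096 for Rmrp, 3884 and 4553 for Rpph1, 60.3 and 86.7 for Terc, 12.5 and 17.9 for Rn7s2, and 2.86 and 5.67 for Rn7s1. Rn7sk ranked 10 among all genes by mean cpm, Rmrp 20 and Rpph1 37. This order per length held in every library, and Rpph1 came closest to Rmrp in METTL7A1 replicate 3, at a ratio of counts of 0.877. The low rank of the 7SL genes belongs to rows whose sequence is identical or covered by other genes.

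**Figure D1:**
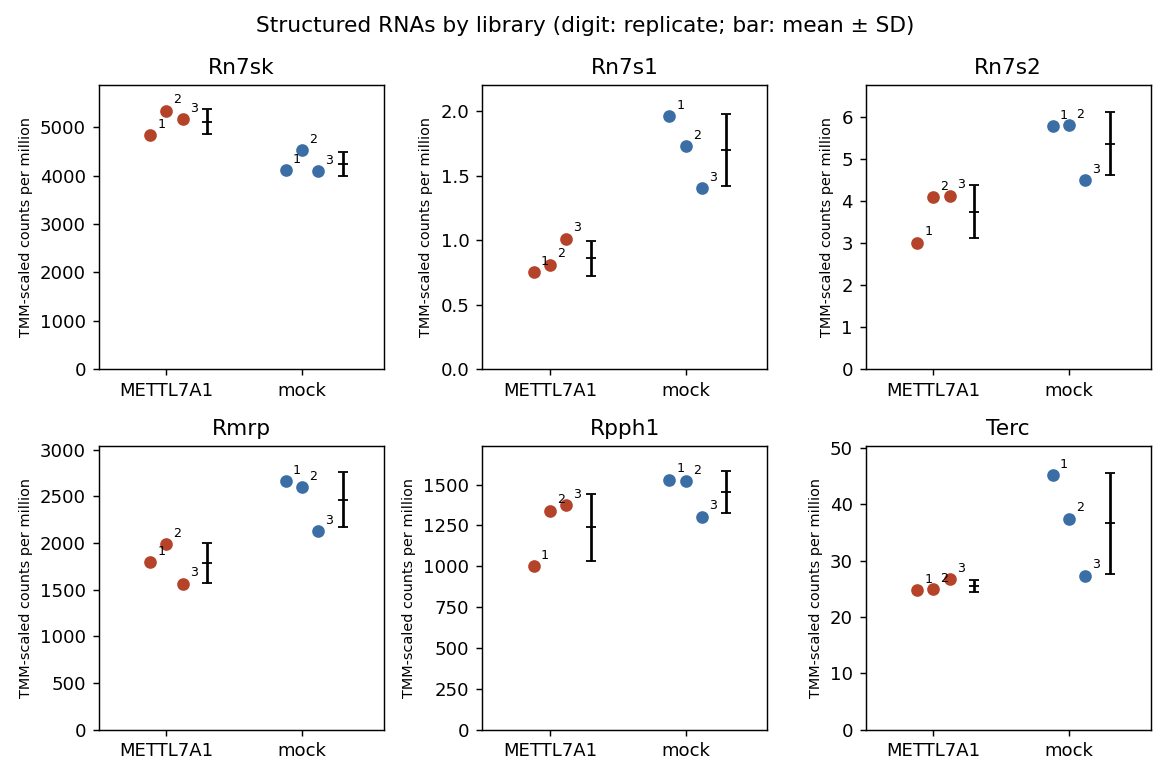
TMM-scaled cpm of the 6 structured RNAs in each library (points, with the replicate number; bars, mean ± SD, n = 3), each panel with its own axis from 0. METTL7A1 libraries sit above mock for Rn7sk, below mock for Rn7s1, Rn7s2, Rmrp and Terc, and overlap mock for Rpph1.

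Against mock, 4 of the 6 RNAs fell in METTL7A1 cells (Rn7s1, Rn7s2, Rmrp and Terc) and none rose. Rn7s1 and Rn7s2 are rows of the same sequence, so they are not independent members of this count. Rn7s1 also reached the abundance filter mainly through mock, the group where it was higher. Rn7sk and Rpph1 did not pass an adjusted p of 0.05 (edgeR quasi-likelihood test, adjusted over 13166 genes). Of all genes tested 42% were called at this level, 21.1% higher and 20.9% lower. The median log2 fold change was -0.48 over the 6 and -0.03 over all genes. Groups were apart in 5 of the 6, as they were in 51.6% of all genes. None of the 6 passed the thresholds of the study (adjusted p under 0.01 and a log2 fold change over 1.5) in edgeR, DESeq2 or limma voom, which 2.48% of all genes did in edgeR, and 5 had an unadjusted p under 0.05. Without mock replicate 1 the count of RNAs called fell to 1 (Rn7s1), and without METTL7A1 replicate 2 or 3 it was 2.

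Rn7sk had 4847, 5350 and 5168 cpm in METTL7A1 replicates 1, 2 and 3 and 4115, 4528 and 4089 cpm in mock. It was the only one of the 6 whose lowest METTL7A1 library was above the highest mock library. As shares of all counts these were 0.490%, 0.556% and 0.523% against 0.370%, 0.438% and 0.442%. Means were 5122 ± 254 and 4244 ± 246 cpm (SD, n = 3), a 1.21-fold difference with a log2 fold change of 0.27, an SE of 0.12 and a 95% interval of 0.01 to 0.53. The edgeR adjusted p was 0.0873. The call turned on the method: DESeq2 gave an adjusted p of 0.000687, limma voom 0.0353, and edgeR without METTL7A1 replicate 1 gave 0.0308. The 25 genes with shared words summed to 206 to 344 counts per library, at most 0.273% of the Rn7sk count. Of the 331 bases of Rn7sk, 279 (84.3%) lay in a shared word. How reads matching several places were treated is not stated. The counts of the copies therefore do not measure how many Rn7sk reads could fit another gene. Gm26315 had 56, 82 and 112 counts in METTL7A1 and 37, 44 and 55 in mock, and Gm24447 had 41, 66 and 60 against 59, 66 and 62.

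Rmrp had 1794, 1991 and 1566 cpm in METTL7A1 and 2666, 2599 and 2130 cpm in mock. Every METTL7A1 library was below every mock library. Means were 1784 ± 213 and 2465 ± 292 cpm (SD, n = 3), and Rmrp fell by 0.47 on the log2 scale (SE 0.13, edgeR adjusted p = 0.0128). Leaving out METTL7A1 replicate 3 (-0.38, edgeR adjusted p = 0.057) or mock replicate 1 (-0.39, 0.0636) ended the call.

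Rpph1 had 1002, 1341 and 1374 cpm in METTL7A1 and 1531, 1522 and 1305 cpm in mock. Here the groups overlapped, since METTL7A1 replicates 2 and 3 lay above mock replicate 3. Means were 1239 ± 206 and 1452 ± 128 cpm (SD, n = 3), with a log2 fold change of -0.23, an SE of 0.13, a 95% interval of -0.51 to 0.06 and an edgeR adjusted p of 0.181. Its sign turned to 0.11 when libraries were scaled on small nuclear and nucleolar RNA genes and to 0.07 when taken relative to its neighbours. Rprl3, counted apart from Rpph1 with 494 to 1095 counts, fell with a log2 fold change of -0.40 (edgeR adjusted p = 0.0173).

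Terc was at 24.7, 25.0 and 26.8 cpm in METTL7A1 and at 45.2, 37.5 and 27.4 cpm in mock. The METTL7A1 libraries were close together and below all mock libraries, but mock replicate 3 lay nearly at their level. Means were 25.5 ± 1.12 and 36.7 ± 8.96 cpm (SD, n = 3), and Terc fell by 0.52 on the log2 scale (SE 0.15, edgeR adjusted p = 0.0146). Without mock replicate 1 the log2 fold change was -0.33 and the edgeR adjusted p 0.073.

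The 7SL rows were sparse. Rn7s1 had 14, 24 and 25 counts in METTL7A1 and 36, 42 and 35 in mock, which is 0.753, 0.811 and 1.01 cpm against 1.96, 1.73 and 1.41 cpm. Means were 0.858 ± 0.136 and 1.70 ± 0.280 cpm (SD, n = 3). The groups did not overlap, and Rn7s1 fell by 0.96 on the log2 scale (SE 0.25, edgeR adjusted p = 0.00991), the largest difference of the 6. Without METTL7A1 replicate 2 the edgeR adjusted p was 0.0534. On library totals Rn7s1 was at 0.761, 0.843 and 1.02 cpm in METTL7A1 and at 1.76, 1.67 and 1.52 cpm in mock. It thus passed the abundance filter of 1 cpm mainly through mock, the group where it was higher. With no abundance filter it was at -0.93 (edgeR adjusted p = 0.0106). Rn7s2 had 56, 121 and 102 counts in METTL7A1 and 106, 141 and 112 in mock, or 3.01, 4.09 and 4.13 cpm against 5.78, 5.81 and 4.499 cpm. Means were 3.74 ± 0.633 and 5.36 ± 0.748 cpm (SD, n = 3). Its groups were also apart, by a narrow margin, and it fell by 0.50 on the log2 scale (SE 0.18, edgeR adjusted p = 0.0419). The call was lost when any 1 library other than mock replicate 3 was left out (edgeR adjusted p 0.0573 to 0.142) and in DESeq2 (0.0596).

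Since both rows have the same sequence, they were also added. The sums were 70, 145 and 127 counts in METTL7A1 and 142, 183 and 147 in mock, or 3.81, 5.09 and 5.20 against 6.96, 7.29 and 6.39 cpm of the library total, again without overlap. The 8 other genes with shared words, led by Rn7s6 with 48 to 87 counts and Gm26461 with 21 to 45, summed to 90 to 197 counts per library, more than the 2 rows together in all METTL7A1 libraries and in mock replicate 2. Which copy a 7SL read came from cannot be told apart here, and both rows are uncertain for that reason.

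Ratios of read counts within a library do not depend on how libraries are scaled. Rn7sk to Rmrp was 2.70, 2.69 and 3.30 in METTL7A1 and 1.54, 1.74 and 1.92 in mock, without overlap. The difference of the mean log2 ratios was 0.74, with an exact two-sided permutation p of 0.1, the smallest that 3 against 3 allows, and 0.167 after adjustment over the 5 ratios computed. Rn7sk to Rpph1 was 4.84, 3.99 and 3.76 against 2.69, 2.98 and 3.13, also without overlap (difference 0.51, exact permutation p = 0.1, adjusted 0.167). Rpph1 to Rmrp overlapped, at 0.558, 0.674 and 0.877 against 0.574, 0.585 and 0.612 (difference 0.23, exact permutation p = 0.4, adjusted 0.4), and varied more among METTL7A1 libraries than among mock libraries. Rprl3 to Rpph1 overlapped too, with means of 0.025 ± 0.00297 and 0.0282 ± 0.00203 (SD, n = 3; exact permutation p = 0.3, adjusted 0.375). Rn7s2 to Rn7s1, identical in sequence, was 4.00, 5.04 and 4.08 against 2.94, 3.36 and 3.20 (exact permutation p = 0.1, adjusted 0.167). The mean log2 ratio of these 2 rows with the same letters was 0.46 higher in METTL7A1. Rn7s1 had only 14 to 42 counts per library, so counting error weighs on this ratio.

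**Figure D2:**
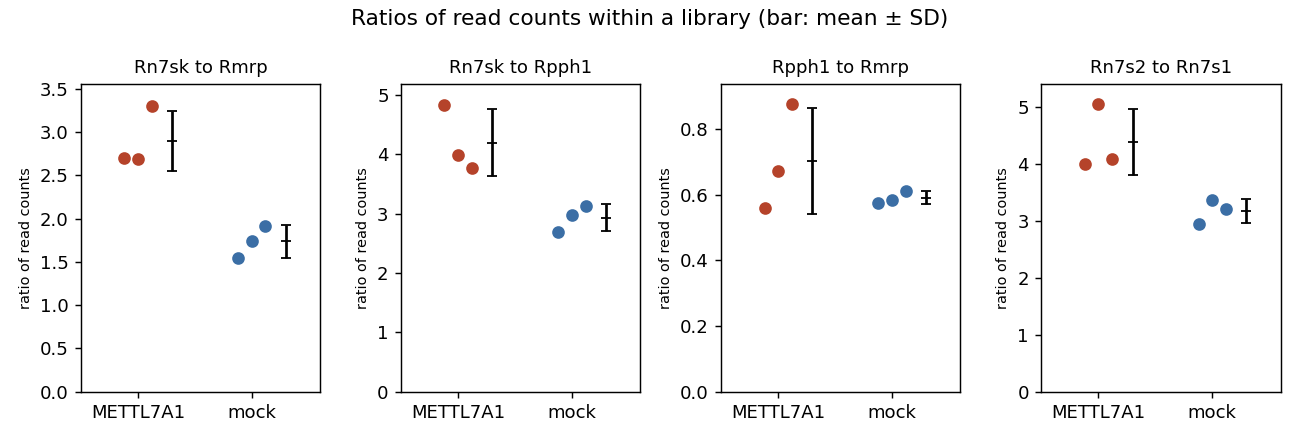
Ratios of read counts between structured RNAs within each library (points; bars, mean ± SD, n = 3), on axes from 0. Rn7sk to Rmrp, Rn7sk to Rpph1 and Rn7s2 to Rn7s1 lie higher in all METTL7A1 libraries, and Rpph1 to Rmrp overlaps.

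The size of the differences depended on what the libraries were scaled to. The small nuclear and nucleolar RNA genes together took a smaller share of the METTL7A1 libraries, as given above. Scaling on 259 small nuclear and nucleolar RNA genes moved the median of all tested genes from -0.03 to 0.29 and the share of calls that were higher from 50.2% to 91.0%. On that scale the log2 fold changes were 0.59 for Rn7sk (edgeR adjusted p = 0.0153), -0.16 for Rmrp (0.554), -0.20 for Terc (0.436), -0.64 for Rn7s1 (0.0947), -0.18 for Rn7s2 (0.578) and 0.11 for Rpph1 (0.702), and Rn7sk was the only one called. Scaling on 595 genes of at most 500 bases moved the median of all genes to 0.15, and the higher share of calls to 79.5%. There Rn7sk was called higher (0.45, edgeR adjusted p = 0.0282) and Rn7s1 lower, while Rmrp was at -0.29 (0.126). Library totals alone gave 60.9% higher calls, 0.33 for Rn7sk and -0.40 for Rmrp. In bulk libraries less RNA of a gene per cell, and fewer cells holding it, cannot be told apart.

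Among other small structured RNAs, 8 of the 19 tested (of 30 in the table) fell and none rose. These 42.1% equal the share of all tested genes called in either direction (42%). Since all 8 fell, the like share is the 20.9% of all tested genes that were called lower. The list had a median log2 fold change of -0.28 against -0.03 for all genes. When scaled on small nuclear and nucleolar RNA genes, 5 were called. Most of this list is among the genes that set that scale, so this count is not a separate test of them. Rnu3a, a U3 RNA of early ribosomal RNA processing, had 533 ± 79.7 against 1127 ± 133 cpm (SD, n = 3), a log2 fold change of -1.08 (edgeR adjusted p = 6.22e-05). Snora73a (-0.82) and Snora73b (-0.77), copies of the U17 RNA that also serves ribosomal RNA processing, fell with it, as did Snord118 (-0.61), the U8 RNA, and Snord17 (-0.53). Snora74a (-0.42), Scarna2 (-0.45), a guide RNA of Cajal bodies, and Rprl3 (-0.40) made up the rest. Leaving out METTL7A1 replicate 2 or mock replicate 2 ended the calls of Rprl3 and Snora74a, and leaving out METTL7A1 replicate 3 or mock replicate 1 those of Scarna2 and Snora74a. The 11 that did not pass ranged from -0.32 to 0.52: Snord13 -0.32, Rnu3b1 -0.28, Rnu73b -0.28, Rny1 -0.14, Scarna13 -0.12, Rny3 -0.00, Rnu11 0.03, Rnu2-10 0.05, Rnu12 0.16, Vaultrc5 0.48 and Rprl2 0.52. With these beside them, Rmrp, Terc, Rn7s1 and Rn7s2 lay within the range of the small RNAs that fell, and Rn7sk lay on the other side of 0.

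Of the genes for proteins that bind these RNAs, 42.9% were called for the 7SK particle and 37.5% for the signal recognition particle. These shares are near the 42% of all tested genes, so these counts are no result about them. For RNase P and RNase MRP 40% were called, all of them lower. Their like share is the 20.9% of all tested genes called lower, and no list was tested as a set. Of 7 genes for the 7SK particle and P-TEFb, 2 fell and 1 rose. Mepce, which caps 7SK, fell with a log2 fold change of -0.33 (edgeR adjusted p = 0.00541). Larp7, which binds the 3′ end of 7SK, fell with -0.29 (0.03 when scaled on small RNA genes). Ccnt1, a cyclin T of P-TEFb, rose from 101 ± 0.951 to 127 ± 7.92 cpm (SD, n = 3; 0.34). The other cyclin T gene, Ccnt2, was at -0.0036 (edgeR adjusted p = 0.979) and Cdk9 at -0.006 (0.957). The list median was -0.01. Of 8 tested signal recognition particle and receptor genes, Srp54b fell (-0.60), and Srpr (0.34), the docking receptor, and Srp19 (0.22, or -0.10 relative to its neighbours) rose, although the Srp19 call was lost when any 1 library was left out. Relative to neighbours, 1 of the 7SK particle genes and 0 of the signal recognition particle genes were called.

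Of the 10 tested RNase P and RNase MRP protein genes 4 fell and none rose, with 20.9% of all genes lower: Pop1 from 140 ± 3.58 to 92.4 ± 8.15 cpm (-0.60), Rpp14 (-0.46), Pop5 (-0.36) and Pop7 (-0.61, not called without mock replicate 1). Pop1 is the largest subunit and is shared by both enzymes. The list median was -0.27, and scaling on small RNA genes left 0 of the 10 called. Of the 8 telomerase genes 62.5% were called, against 42% of all genes. Tert, the reverse transcriptase, fell from 13.9 ± 0.463 to 8.37 ± 0.741 cpm (SD, n = 3; -0.73, edgeR adjusted p = 0.000347). Dkc1 (-0.52) and Nhp2 (-0.38), which bind the H/ACA domain of Terc, and Wrap53 (-0.35), which brings it to Cajal bodies, also fell, the last losing its call when METTL7A1 replicate 2 or 3 or mock replicate 1 was left out, while Parn (0.34), the deadenylase that trims the Terc 3′ end, rose. On the small RNA scale 1 of the 8 was called.

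Of 31 RNA polymerase III subunits and factors, 13 fell and 4 rose (54.8% called, against 42% of all genes), with a median of -0.17. By the smallest p these were Snapc1, a subunit of the complex that binds the promoters of 7SK, Rmrp and Rpph1, from 29.7 ± 2.02 to 16.8 ± 1.24 cpm (-0.83), Gtf3c6 (-0.73), a subunit of TFIIIC, Gtf3a (-0.78), the factor of the 5S RNA gene, and Polr3g (-0.70), a subunit of the enzyme. The 4 that rose were Polr3gl (0.81, the highest of the list), Maf1, a repressor of RNA polymerase III (0.58), Snapc2 (0.51) and Tbp (0.29). Snapc3 fell (-0.60). These 4 and Snapc3 were named after their values were seen.

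**Figure D3:**
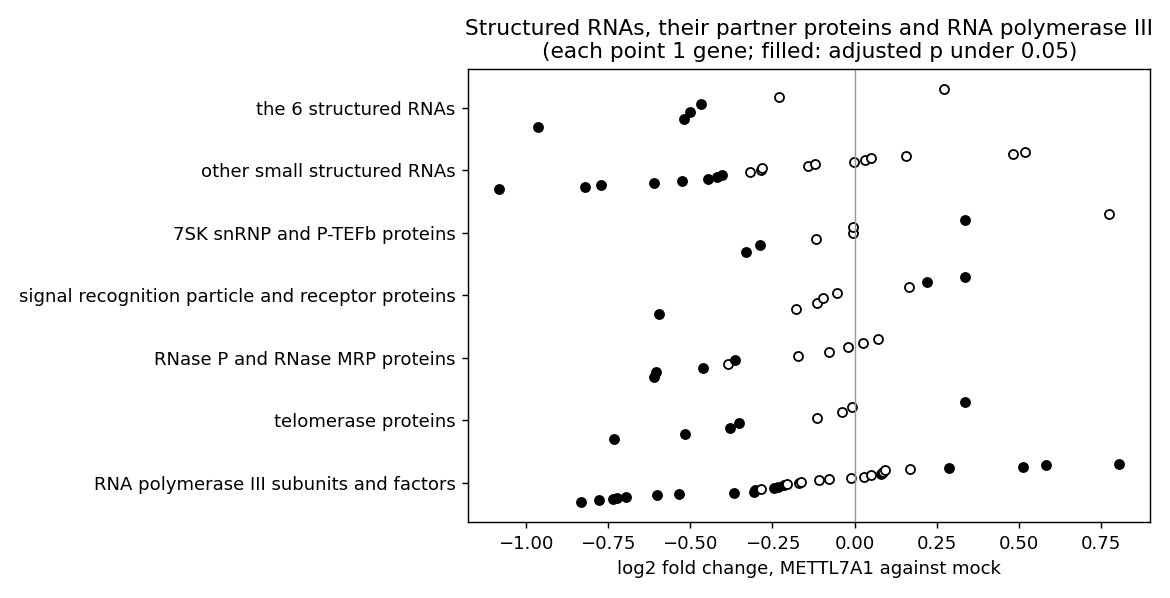
Log2 fold change (METTL7A1 against mock) of each tested gene in the lists, 1 point per gene, filled where the adjusted p was under 0.05. The 6 structured RNAs and the other small structured RNAs lie mostly below 0, as do the 4 called RNase P and RNase MRP protein genes.

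The RNAs were next set beside the genes around them. Rn7s1 and Rn7s2 lie close together on chromosome 12 and shared 38 of their 40 nearest tested genes. These are the nearest tested genes with a mean log2 cpm over 2. Of the 40 around Rn7s1, 31 fell, none rose, and the median log2 fold change was -0.49, and around Rn7s2 the figures were 31, none and -0.50. The 40 around Rn7s1 include Rn7s2 itself, and without it 30 of 39 fell, with a median of -0.48. The nearest were Rps29, a ribosomal protein gene starting 109 bases from Rn7s1 on the opposite strand (-0.59), Lrr1 (-0.36, edgeR adjusted p = 0.0689), Nemf (-0.58) and Arf6 (-0.61). Relative to its neighbours Rn7s1 was at -0.48 (edgeR adjusted p = 0.179) and Rn7s2 at -0.01 (0.985), so neither was called. Around Rpph1, 25 of 40 fell and 2 rose, with a median of -0.30. Parp2, which shares its start region, fell with a log2 fold change of -0.60, and Ccnb1ip1 with -1.34.

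The other 3 lay among genes with medians nearer 0. Around Rmrp, 7 of 40 fell and 6 rose, with a median of -0.03. Ccdc107, 304 bases from the Rmrp start and facing away, was at 0.27 (edgeR adjusted p = 0.0522), on the other side of 0 from Rmrp, and Tesk1 fell (-0.37). Around Terc, 7 fell and 7 rose, with a median of -0.10. Its neighbours were Gm21960 (0.30, edgeR adjusted p = 0.296) and Txnip, which rose with 1.23. Around Rn7sk, 8 fell and 5 rose, with a median of -0.13. Ick rose (0.30) and Gsta4 fell (-0.60), each losing its call when any 1 library other than mock replicate 3 was left out, and the closest gene facing away, C920006O11Rik, had 3 to 12 counts and was not tested. Relative to their neighbours the log2 fold changes were 0.40 for Rn7sk (edgeR adjusted p = 0.0251), -0.44 for Rmrp (0.0238) and -0.41 for Terc (0.0499).

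**Figure D4:**
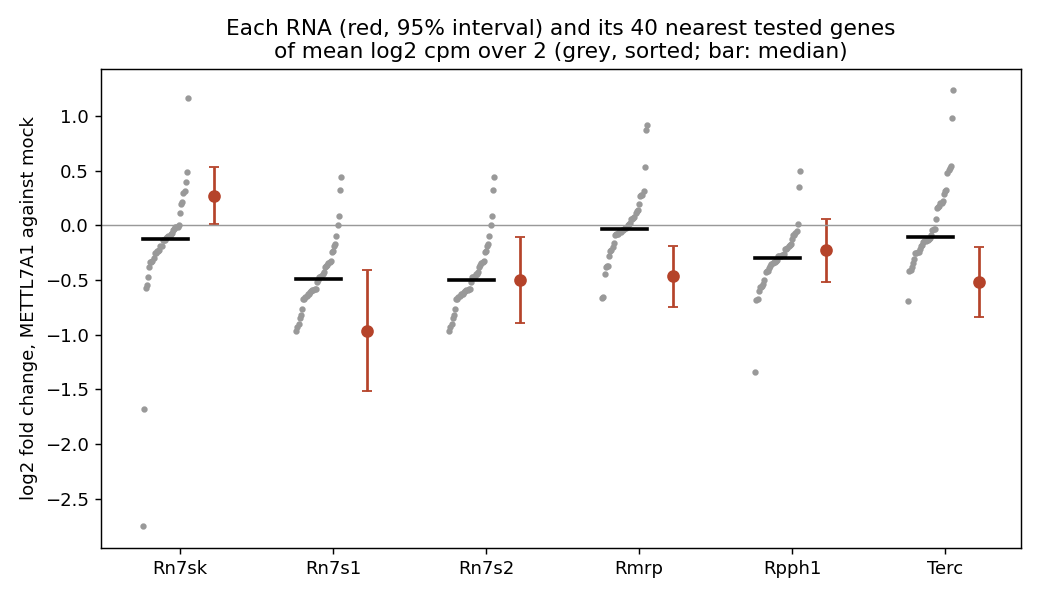
Log2 fold change of each structured RNA (red, with its 95% interval) beside those of its 40 nearest tested genes with a mean log2 cpm over 2 (grey, sorted, with their median as a bar). The genes around Rn7s1 and Rn7s2 have medians of -0.49 and -0.50, near the value of Rn7s2, whereas Rn7sk, Rmrp and Terc lie away from theirs.

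Profiles over the 6 libraries were compared by the root mean square difference of log2 cpm after centring each gene, over the 11660 or 11661 other genes that averaged 50 counts or more. The most alike were Syne4, Pknox1 and Gng12 for Rn7sk (differences 0.016, 0.0243 and 0.0272), Gm13340, Fam73b and Mdp1 for Rmrp (0.036, 0.0516 and 0.0519), and Ndufs5, Hist2h2ac and Igfbp4 for Rpph1 (0.0362, 0.04 and 0.0434). For Terc they were Snora78, Ino80b and Dll1 (0.0728, 0.0782 and 0.0827), for Rn7s2 Hist1h2bl, Actg1 and Sfn (0.0405, 0.047 and 0.0504), and for Rn7s1 Tmem238 and Irx1 (0.0359 and 0.0619). Among the 6 themselves, Rn7s2 and Rpph1 were closest (0.148) and Rn7s1 and Rn7sk farthest apart (0.645). The 2 rows of 7SL differed by 0.254, more than either Rn7s2 from Terc (0.169) or Rn7s2 from Rmrp (0.190). The low counts of Rn7s1 add counting error to this value.

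**Figure D5:**
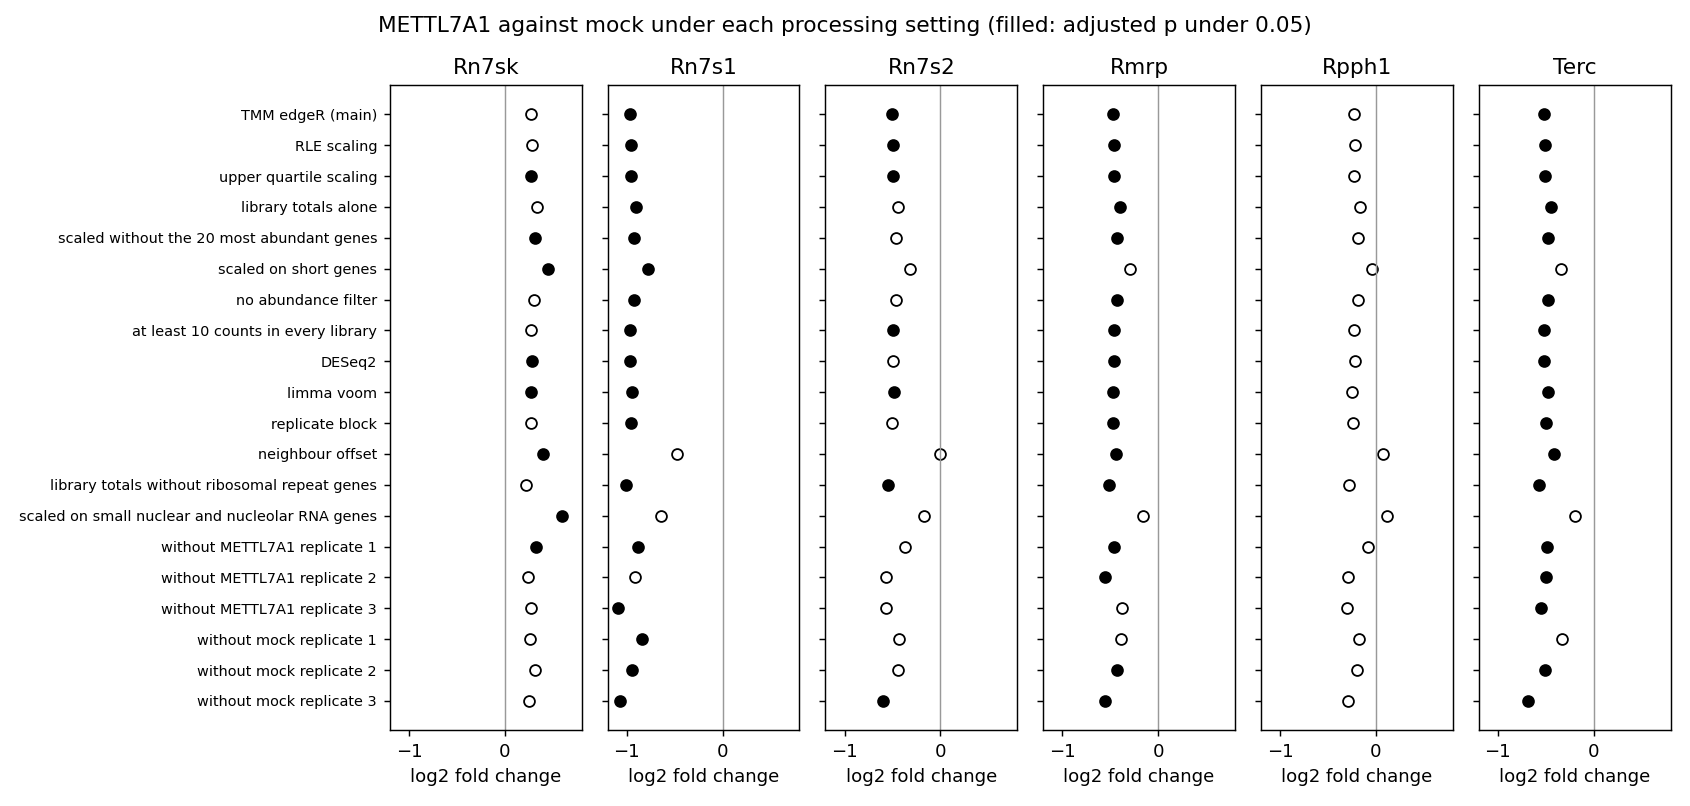
Log2 fold change of each structured RNA (METTL7A1 against mock) under each processing setting, filled where the adjusted p was under 0.05. Rn7sk stays above 0 throughout and is called in 8 of 19 alternatives, Rn7s1, Rmrp and Terc are called in 16, 15 and 16, Rn7s2 in 6 and Rpph1 in none.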

How the data were processed

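Total RNA of 3 METTL7A1 and 3 mock 4T1 libraries was measured, and the sample titles gave the groups and replicate numbers. The authors trimmed reads with BBDuk, aligned them to GRCm38 (mm10) with STAR 2.5.3a and deposited raw read counts per gene from featureCounts, without normalization. Per the file headers, gene length is the summed exon length in bases. Strand and multi-mapping settings are not given in the sources used here.

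The deposited counts were tested with edgeR 4.0.16 (R 4.3.3). The filter kept genes reaching 1 cpm in 3 or more libraries, libraries were scaled by TMM, and METTL7A1 was compared with mock by the quasi-likelihood test with Benjamini-Hochberg adjustment over 13166 genes. The SE is the log2 fold change divided by the square root of F. Totals of 18386780 to 28459338 counts put the floor of 3 counts at 0.105 to 0.163 cpm of the library total, for counting error only. DESeq2 1.42.0, limma 3.58.1 (voom), other scalings, filters, a replicate block, an offset by the median of the 40 nearest tested genes with a mean log2 cpm over 2 and leaving out each library were alternatives, and scripts were tested on simulated data.

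Same-numbered libraries deviated from their group means with correlations of -0.143, 0.188 and -0.357, so the numbers were not taken to pair the samples. The RNAs and gene lists were chosen with earlier results of these data known. The text names all 6 RNAs, up to 4 called genes of a list by smallest p (5 or fewer in full), all tested small structured RNAs, the nearest tested gene on each side and the 3 most alike profiles, of which 1 of Rn7s1 is not reported here, nor is the 7SL sequence. Transcript sequences are from GENCODE M21 and promoter windows from RefSeq (GRCm38.p6). No promoter window of the 6 RNAs themselves was used here.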

Additional observations from a re-analysis of the deposited data

How the results depend on the processing

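Over 19 alternatives each, Rn7sk kept its sign (0.22 to 0.59) and gained a call under upper quartile scaling (0.28), scaling without the 20 most abundant genes (0.31), on short genes (0.45) or on small RNA genes (0.59), DESeq2 (0.28), limma voom (0.27) and the neighbour offset (0.40). Rn7s1 lost its call under the neighbour offset (-0.48) and small RNA scaling (-0.64). Rn7s2 lost it under library totals (-0.44), scaling without the 20 most abundant genes (-0.46), on short genes (-0.32) or small RNA genes (-0.18), no abundance filter (-0.46), DESeq2 (-0.50) and the neighbour offset (-0.0062). Scaling on short genes and on small RNA genes ended the calls of Rmrp (-0.29 and -0.16) and Terc (-0.34 and -0.20). Rpph1 changed sign under the neighbour offset (0.074) and small RNA scaling (0.11). The number of the 6 called was 2 on short genes and 1 on small RNA genes, and a 1.5-fold linear threshold with adjusted p under 0.01 called 1, where the study thresholds called 0. The cause of these shifts was not tested.

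With the replicate block the log2 fold change of Rn7s2 was -0.51 (edgeR adjusted p = 0.073) and its call was lost, with no other call of the 6 changed; 4808 genes were called with the block and 5536 without. Called counts of lists moved under the neighbour offset to 1 for the 7SK particle, 0 for the signal recognition particle and 3 for telomerase. On short genes they moved to 1 for RNase P and RNase MRP, 3 for telomerase and 5 for other small RNAs. On small RNA genes they moved to 0, 1 and 5 for these lists in the same order, and to 7 for RNA polymerase III. The other small RNAs are among the genes of the short-gene scale, and most of them among those of the small RNA scale. Their counts there are therefore not a separate test. Leaving out 1 library gave log2 fold changes of 0.24 to 0.32 for Rn7sk, -1.09 to -0.84 for Rn7s1, -0.60 to -0.37 for Rn7s2, -0.55 to -0.38 for Rmrp, -0.30 to -0.09 for Rpph1 and -0.68 to -0.33 for Terc. It left 1 to 4 of the 6 called, 0 at the study thresholds, 3 to 4 of the 7SK particle, 2 of the signal recognition particle, 3 to 5 of RNase P and RNase MRP, 4 to 5 of telomerase, 12 to 19 of RNA polymerase III and 6 to 8 of the other small RNAs.

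For the 71 other genes that the naming rule covers, 1165 values kept sign and side of the threshold, 133 lost a call, 15 gained one and 36 changed sign. On small RNA genes Ndufs5 (0.11), Hist2h2ac (0.093), Igfbp4 (0.099), Rny1 (0.19), Rny3 (0.30), Rnu3b1 (0.011), Rnu73b (0.0089), Scarna13 (0.18) and Larp7 (0.029) changed sign, and on short genes Rny1 (0.044), Rny3 (0.17) and Scarna13 (0.049). Under the neighbour offset these were Lrr1 (0.13), Rnu12 (-0.10), Scarna13 (0.092) and Srp19 (-0.10), and under library totals without ribosomal repeat genes Rnu11 (-0.018) and Rnu2-10 (-0.0015). Limma voom turned Rnu11 (-0.0067) and Rny3 (0.043). Rny3, at -0.0021 with TMM scaling, also turned under RLE (0.0047), upper quartile (0.0078), library totals (0.065), scaling without the 20 most abundant genes (0.038), no abundance filter (0.031), DESeq2 (0.0056) and the replicate block (0.024). Leaving out 1 library gave ranges with both signs for Rny3 (-0.21 to 0.26), Rnu11 (-0.14 to 0.26), Rnu2-10 (-0.055 to 0.16) and Scarna13 (-0.23 to 0.013). Small RNA scaling and library totals without ribosomal repeat genes were chosen after seeing the data. The 7SL rows had 14 to 141 counts per library; what set these low counts was not tested.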
